A study of Mus musculus with 17 samples.

Results

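The 10 immediate-early genes described here were followed through 17 RNA sequencing libraries of the extensor digitorum longus (EDL), a lower-leg muscle made mostly of fast fibres, from aged mice. The genes are Fos, Fosb, Jun, Junb, Egr1, Egr2, Egr3, Atf3, Ier2 and Nr4a1. They were taken by symbol from the table of 36172 gene rows, where each had 1 row, and all 10 were among the 13965 genes kept by the filter on low counts. A vector carrying Hand2, a transcription factor of sympathetic neurons, had been given to 7 animals, and 10 had been given an empty vector. The Hand2 group held 3 females of 22 months, 1 female of 23 months, 1 male of 22 months and 2 males of 23 months. The empty-vector group held 2 females of 22 months, 3 females of 23 months, 1 male of 22 months and 4 males of 23 months. The labels give neither the strain of the mice nor the vector's type, promoter, route or time of delivery. Replicate numbers follow the order of the samples and pair no animals.

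Immediate-early genes are switched on within minutes of a stimulus by factors already present in the cell, and their transcripts are short-lived. Fos and Fosb proteins pair with Jun proteins to form the AP-1 transcription factor. Egr1, Egr2 and Egr3 are zinc-finger transcription factors, Atf3 is a stress-induced factor of the ATF/CREB family, Nr4a1 is an orphan nuclear receptor, and Ier2 is a nuclear protein of the early response. In skeletal muscle, contraction, stretch and injury are known to induce such genes, and beta-adrenergic stimulation is known to induce Nr4a1.

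The libraries held 19181208 to 30942818 estimated counts each (median 26091234). Hand2 itself had 21 to 502 counts in Hand2 animals and 2 to 24 in empty-vector animals, so the ranges overlapped. Defining genes of fast fibres were abundant in every library, with a summed level between 91970 and 112100 CPM (counts relative to the library total, scaled by the trimmed mean of M values) in Hand2 animals and between 91170 and 108300 CPM in empty-vector animals. Summed slow-fibre markers varied widely, from 145.5 to 1403 CPM in Hand2 animals and from 135 to 1456 CPM in empty-vector animals. In bulk tissue, fewer cells of a type and less RNA per cell cannot be told apart.

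RefSeq promoter windows of 300 bases, from 250 bases before to 50 bases after the transcript start in build GRCm38.p6, were at hand for 7 of the 10 genes. TGACG, the core of the binding site of CREB and ATF factors, was read on both strands and stood in 6 of these 7 windows, against 20.8% of 32851 windows of all genes. Windows are printed for the 4 of them with the highest levels over the median described below, and for Jun, the one window of the 7 without TGACG. Capitals mark TGACG or its reverse complement CGTCA. The windows are chr12:85473640-85473939 for Fos (plus strand), chr8:84978699-84978998 for Junb (minus strand), chr1:191183284-191183583 for Atf3 (minus strand), chr7:19309996-19310295 for Fosb (minus strand) and chr4:95052173-95052472 for Jun (minus strand).
Fos: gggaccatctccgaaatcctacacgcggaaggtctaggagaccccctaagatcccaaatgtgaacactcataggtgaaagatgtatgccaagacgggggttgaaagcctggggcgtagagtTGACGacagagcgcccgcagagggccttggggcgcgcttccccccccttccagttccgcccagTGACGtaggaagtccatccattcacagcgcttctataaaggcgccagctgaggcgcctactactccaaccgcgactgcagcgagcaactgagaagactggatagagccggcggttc
Junb: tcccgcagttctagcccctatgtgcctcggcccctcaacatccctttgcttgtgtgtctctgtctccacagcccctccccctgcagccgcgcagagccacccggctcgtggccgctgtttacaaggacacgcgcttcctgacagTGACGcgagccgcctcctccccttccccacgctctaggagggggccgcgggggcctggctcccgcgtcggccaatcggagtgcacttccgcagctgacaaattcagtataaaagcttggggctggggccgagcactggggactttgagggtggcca
Atf3: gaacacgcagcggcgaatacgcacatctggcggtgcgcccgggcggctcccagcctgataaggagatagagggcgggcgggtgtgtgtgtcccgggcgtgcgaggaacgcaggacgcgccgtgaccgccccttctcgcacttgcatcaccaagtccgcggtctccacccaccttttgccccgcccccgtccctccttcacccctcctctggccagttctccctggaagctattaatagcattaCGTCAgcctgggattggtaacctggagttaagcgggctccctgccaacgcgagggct
Fosb: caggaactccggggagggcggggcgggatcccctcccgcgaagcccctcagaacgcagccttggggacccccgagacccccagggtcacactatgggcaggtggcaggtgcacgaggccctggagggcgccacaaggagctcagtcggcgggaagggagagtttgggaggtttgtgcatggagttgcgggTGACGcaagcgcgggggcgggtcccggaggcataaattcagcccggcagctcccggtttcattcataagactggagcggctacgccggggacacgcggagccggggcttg
Jun: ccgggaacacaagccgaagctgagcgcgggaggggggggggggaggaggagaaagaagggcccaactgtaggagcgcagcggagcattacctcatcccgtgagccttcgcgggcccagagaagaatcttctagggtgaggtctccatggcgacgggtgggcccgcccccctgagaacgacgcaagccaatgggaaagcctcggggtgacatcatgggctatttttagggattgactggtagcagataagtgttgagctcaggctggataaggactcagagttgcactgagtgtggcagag
Counted from the transcript start, with the first base before it as -1, the first marked letter lies at -129 and -66 in Fos, -106 in Junb, -7 in Atf3 and -60 in Fosb. Nr4a1 held 4 matches, at -233, -213, -69 and -40, and Egr2 held 2, at -111 and -55. The full palindrome TGACGTCA, of which TGACG is part, was in none of the 7 windows and in 1.79% of all windows. The AP-1 motif TGANTCA was in none of the 7 and in 7.81% of all windows. The CArG box, the site of serum response factor, was in the Egr2 window alone, at -72, and in 1.63% of all windows. The Egr site GCGNGGGCG was in the Fosb and Nr4a1 windows and in 5.55% of all windows. TATAAA was in the Fos and Junb windows and in 13.6% of all, and CCAAT in 4 of the 7 and in 37.4% of all. These are matches of letters within a window of 300 bases and no measurement of binding.

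Nr4a1 and Jun were the most abundant of the 10 genes in this muscle and Egr3 the least. On a scale of CPM per kilobase of exon, the median over 17 animals was 63.6 for Nr4a1, 49.1 for Jun, 11.8 for Junb, 7.49 for Ier2, 5.66 for Fos, 5.14 for Egr1, 4.17 for Atf3, 0.707 for Egr2, 0.259 for Fosb and 0.163 for Egr3. All other levels below are in CPM and are compared between animals only. The spread between animals differed widely among the genes. Fos was 192.8 times as high in the highest as in the lowest animal, Fosb 37.3 times, Junb 34.1 times, Egr1 32.2 times, Atf3 31 times and Nr4a1 14.5 times. Egr3 spanned 6.76 times, Ier2 3.86 times, Jun 3.84 times and Egr2 3.32 times.

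The genes were high together in 2 animals, both females of 23 months given the empty vector. For each gene an animal was counted where its level was above 2-fold the median of all 17 animals. Above that limit were 8 of the 10 genes in empty-vector replicate 3 and 8 in empty-vector replicate 4, and 7 of them (Fos, Fosb, Jun, Junb, Egr1, Atf3 and Nr4a1) were above it in both. The count in replicate 4 was 6 with unscaled CPM or upper-quartile scaling and 5 with the median of the same sex or a limit of 3-fold, at which Hand2 replicate 5 had 2 genes and empty-vector replicate 3 had 6. Of all 13965 genes tested, 1.85% were above the same limit in replicate 3, 2.43% in replicate 4, and 128 genes in both. The next animal was Hand2 replicate 5, also a female of 23 months, with 4 of the 10 genes, against 1.41% of all genes tested. Of the other 14 animals, 7 had 1 or 2 of the genes above the limit and 7 had none. The geometric mean of the 10 folds over the median was 2.0 in Hand2 replicate 5, 6.04 in empty-vector replicate 3 and 3.07 in empty-vector replicate 4, and between 0.562 and 1.29 in the other animals.

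**Figure D1:**
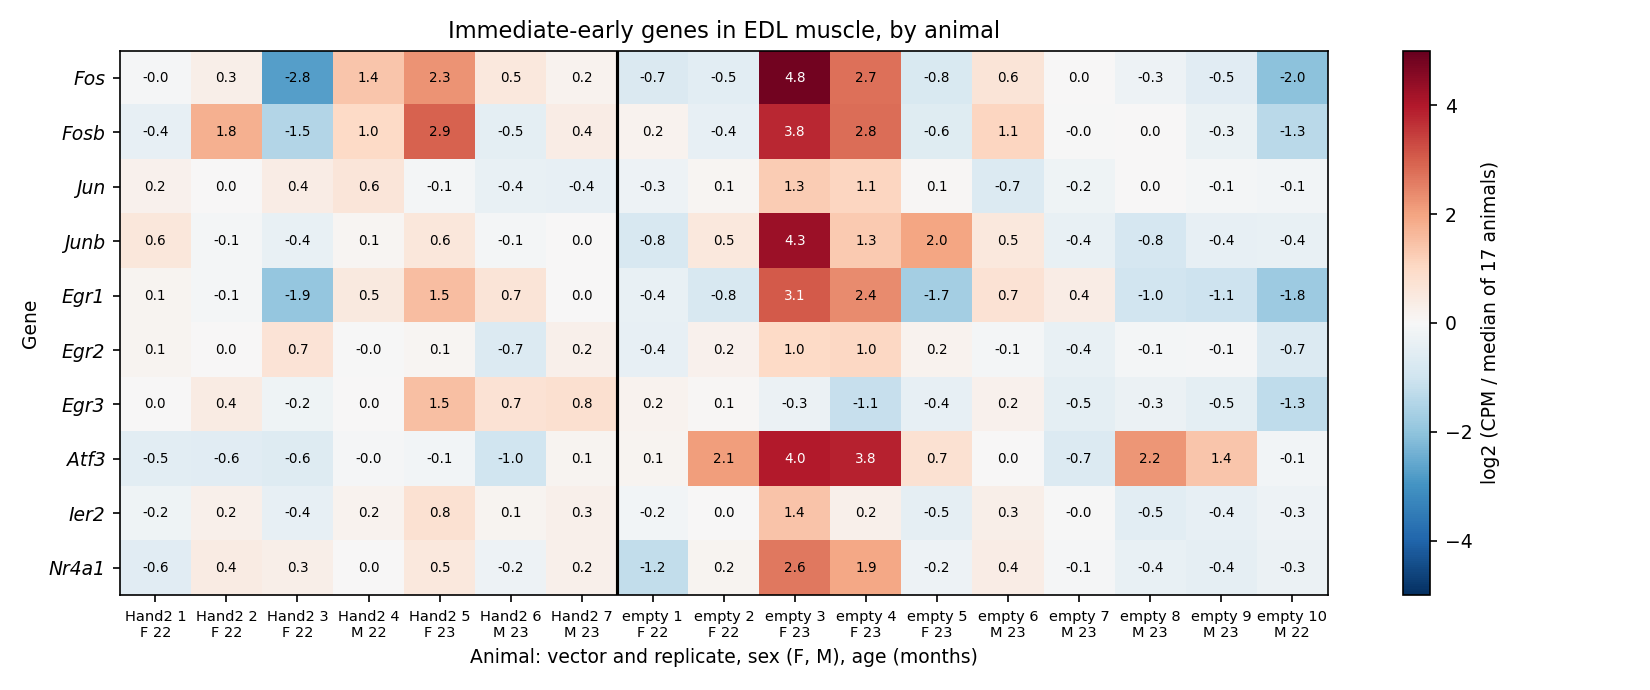
Level of each immediate-early gene (rows) in each of 17 animals (columns: 7 Hand2 animals on the left, 10 empty-vector animals on the right, with sex and age in months), as log2 of CPM over the median of the 17. Empty-vector replicates 3 and 4 are red in most rows, Hand2 replicate 5 is red for Fos, Fosb, Egr1 and Egr3, and Hand2 replicate 3 and empty-vector replicate 10 are blue for Fos, Fosb and Egr1.

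Among the AP-1 genes, Fos varied most. It ran from 1.75 to 57.3 CPM in Hand2 animals, with a median of 14.6 CPM, and from 2.91 to 337.7 CPM in empty-vector animals, with a median of 9.10 CPM. The highest Hand2 value was that of replicate 5, and the empty-vector replicates 3 and 4 had 337.7 and 79.6 CPM, both above every Hand2 animal. These were 28.3 and 6.67 times the median of 17 animals. Without these 2 animals the empty-vector maximum was 18.6 CPM, in a male of 23 months, so that 2 of the 7 Hand2 animals, replicates 4 and 5 at 31.2 and 57.3 CPM, stood above the 8 other empty-vector animals.

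Fosb, a second partner of Jun proteins, followed Fos at a lower level. It ran from 0.357 to 7.53 CPM in Hand2 animals, with a median of 1.26 CPM, and from 0.386 to 13.3 CPM in empty-vector animals, with a median of 0.969 CPM. Hand2 replicate 5 had the second highest value, between those of empty-vector replicate 3 and of replicate 4, at 6.77 CPM. Hand2 replicate 2, a female of 22 months, had 3.38 CPM of Fosb beside 14.6 CPM of Fos. Fos and Fosb were both lowest in Hand2 replicate 3, a female of 22 months, and second lowest in empty-vector replicate 10, a male of 22 months.

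Jun and Junb, the partners of Fos proteins, followed this order less closely. Over 17 animals Spearman's rho with Fos was 0.15 for Jun and 0.56 for Junb, against 0.84 for Fosb. Jun ran from 118.7 to 239.5 CPM in Hand2 animals, with a median of 159.8 CPM, and from 98.6 to 378.9 CPM in empty-vector animals, with a median of 151.9 CPM. Its 2 highest values, 378.9 and 328.9 CPM, were those of empty-vector replicates 3 and 4, and Hand2 replicate 5 was below the Hand2 median at 146.6 CPM. Junb ran from 16.3 to 31.7 CPM in Hand2 animals, with a median of 21.3 CPM, and from 12.1 to 411.1 CPM in empty-vector animals, with a median of 23.7 CPM. Junb had 411.1 CPM in empty-vector replicate 3, 52.9 CPM in replicate 4 and 82.7 CPM in replicate 5, the third empty-vector female of 23 months, in which Fos was at 7.07 CPM and Egr1 at 7.03 CPM. Junb in replicate 5 was 3.88 times the median of 17 animals, and no other of the 10 genes was above 2-fold there.

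**Figure D2:**
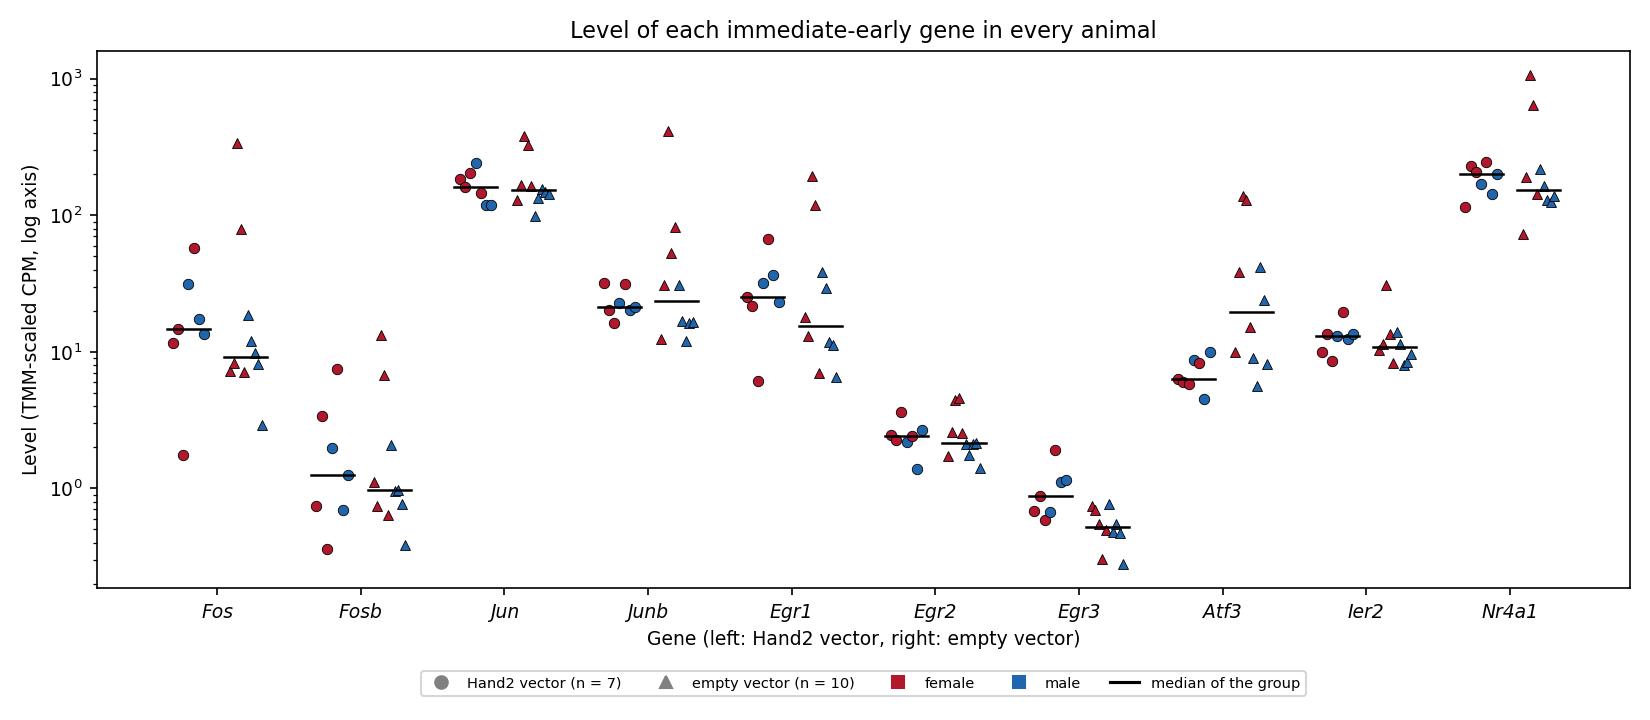
Level of each immediate-early gene in every animal, in CPM on a log axis, with Hand2 animals (circles, n = 7) left of empty-vector animals (triangles, n = 10), females in red, males in blue, and the median of each group as a line. The 2 highest points of Fos, Jun, Egr1, Egr2, Atf3 and Nr4a1 are empty-vector females, while the groups overlap for every gene.

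Among the Egr genes, Egr1 ran from 6.07 to 67.1 CPM in Hand2 animals, with a median of 25.2 CPM, and from 6.52 to 195.3 CPM in empty-vector animals, with a median of 15.5 CPM. Hand2 replicate 5 had the highest Hand2 value, and empty-vector replicates 3 and 4 had 195.3 and 119.7 CPM, or 8.48 and 5.19 times the median of 17 animals. Egr2 ran from 1.39 to 3.60 CPM in Hand2 animals, with a median of 2.43 CPM, and from 1.40 to 4.62 CPM in empty-vector animals, with a median of 2.14 CPM. Its 2 highest values, 4.45 and 4.62 CPM in empty-vector replicates 3 and 4, were 1.97 and 2.05 times the median of 17 animals.

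Egr3, the third member of the family, ran from 0.584 to 1.90 CPM in Hand2 animals, with a median of 0.880 CPM, and from 0.280 to 0.766 CPM in empty-vector animals, with a median of 0.522 CPM. Of the 7 Hand2 animals, 4 were above every empty-vector animal, and 7 of the 10 empty-vector animals were below every Hand2 animal. The highest value was that of Hand2 replicate 5. In empty-vector replicates 3 and 4, where Egr1 was highest, Egr3 had 0.548 and 0.302 CPM, or 0.82 and 0.45 times the median of 17 animals. Egr3 rested on 7 to 39 counts per library, so its values are the least precise of the 10.

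Atf3 was above 2-fold its median in 5 empty-vector animals and in no Hand2 animal. It ran from 4.50 to 9.90 CPM in Hand2 animals, with a median of 6.31 CPM, and from 5.62 to 139.4 CPM in empty-vector animals, with a median of 19.4 CPM. Of the 10 empty-vector animals, 7 were above every Hand2 animal, and the lowest value was that of Hand2 replicate 6. Besides 139.4 and 129.0 CPM in empty-vector replicates 3 and 4, Atf3 had 38.7 CPM in replicate 2, a female of 22 months, 41.8 CPM in replicate 8 and 23.8 CPM in replicate 9, both males of 23 months. In replicates 2, 8 and 9 no other of the 10 genes was above 2-fold its median, and Fos had 8.32, 9.87 and 8.16 CPM there. Hand2 replicate 5, with the third highest Fos, had 8.22 CPM of Atf3.

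**Figure D3:**
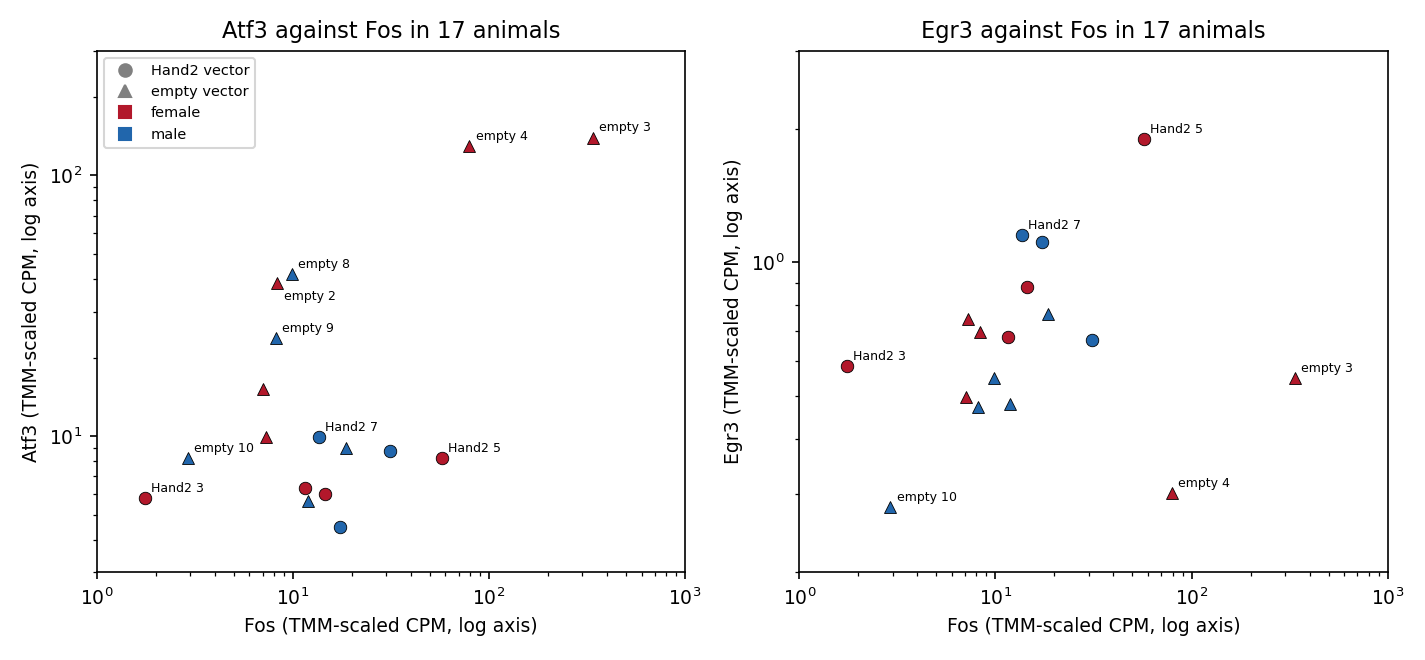
Atf3 (left panel) and Egr3 (right panel) against Fos in 17 animals, in CPM on log axes, with Hand2 animals as circles, empty-vector animals as triangles, females in red and males in blue. Atf3 is between 23.8 and 41.8 CPM in empty-vector replicates 2, 8 and 9 at a Fos level under 10 CPM, and Egr3 is highest in Hand2 replicate 5 and low in empty-vector replicate 4.

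Nr4a1 and Ier2 differed in how far these animals stood out. Nr4a1 ran from 114.7 to 244.2 CPM in Hand2 animals, with a median of 201.3 CPM, and from 73.5 to 1062 CPM in empty-vector animals, with a median of 153.4 CPM. Empty-vector replicates 3 and 4 had 1062 and 647.3 CPM, or 6.23 and 3.80 times the median of 17 animals, and the highest of the other 15 values was 244.2 CPM in Hand2 replicate 5. Ier2 ran from 8.50 to 19.4 CPM in Hand2 animals, with a median of 13 CPM, and from 7.95 to 30.7 CPM in empty-vector animals, with a median of 10.8 CPM. Ier2 had 30.7 CPM in empty-vector replicate 3, or 2.69 times the median of 17 animals, and 13.5 CPM in replicate 4, which lay within the range of the other animals.

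The co-variation of the 10 genes was measured as the correlation of each gene with the mean of the other 9, on log2(CPM + 0.5) after centring and scaling each gene. The genes were chosen with their shared variation in these animals known, so the correlations are a description and carry no p-value. Over 17 animals the median Pearson's r of the 10 genes was 0.797 and the median Spearman's rho 0.63. Fos had the highest values, an r of 0.913 and a rho of 0.809, and Egr3 had an r of -0.02 and a rho of 0.23. The 2 animals farthest from the median were empty-vector replicates 3 and 4, and without them the median r was 0.557 and the median rho 0.48.

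Over these 15 animals the genes fell into a different order. Fosb (r = 0.762), Fos (r = 0.727), Ier2 (r = 0.696) and Egr3 (r = 0.690) had the highest r, while Jun had -0.08 and Atf3 -0.21. Egr3 with Fos alone had an r of 0.20 over 17 animals and of 0.72 over the 15. Within the 7 Hand2 animals the median r was 0.587, with Fosb highest at 0.895. Within the 10 empty-vector animals the median r was 0.869, with Egr3 lowest at -0.12.

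Other early-response genes were high in the same 2 animals. Of 64 listed, 61 were tested, and 37 were above 2-fold their median in empty-vector replicate 3, 24 in replicate 4, and 22 in both. The count was 8 in Hand2 replicate 3, 3 in Hand2 replicate 5, 13 in empty-vector replicate 5, 7 in empty-vector replicate 2 and at most 4 in each other animal. Csrnp1, a nuclear protein of the early response, was 19.5 and 11.9 times its median in empty-vector replicates 3 and 4, and Maff, a small leucine-zipper factor, 17.3 and 5.81 times. Sik1, a kinase induced by cAMP signalling, was 13.7 and 9.78 times its median in these animals, Btg2, an antiproliferative gene, 11.1 and 5.76 times, and Zfp36, whose protein speeds the decay of mRNA, 9.77 and 4.83 times. Nr4a3, a relative of Nr4a1, had 19.5 and 23.8 CPM there, against 0.975 to 6.34 CPM in the other 15 animals. Ier3, Dusp6, Btg1, Socs3 and Il6 were among the 22 that were above 2-fold in neither animal. None of 23 genes upstream of the immediate-early genes, such as their kinases and the serum response factor, was above 2-fold its median in any animal. Of all genes tested, only 0.795% to 3.5% were above it in each animal, so few of 23 would be counted at that share.

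**Figure D4:**
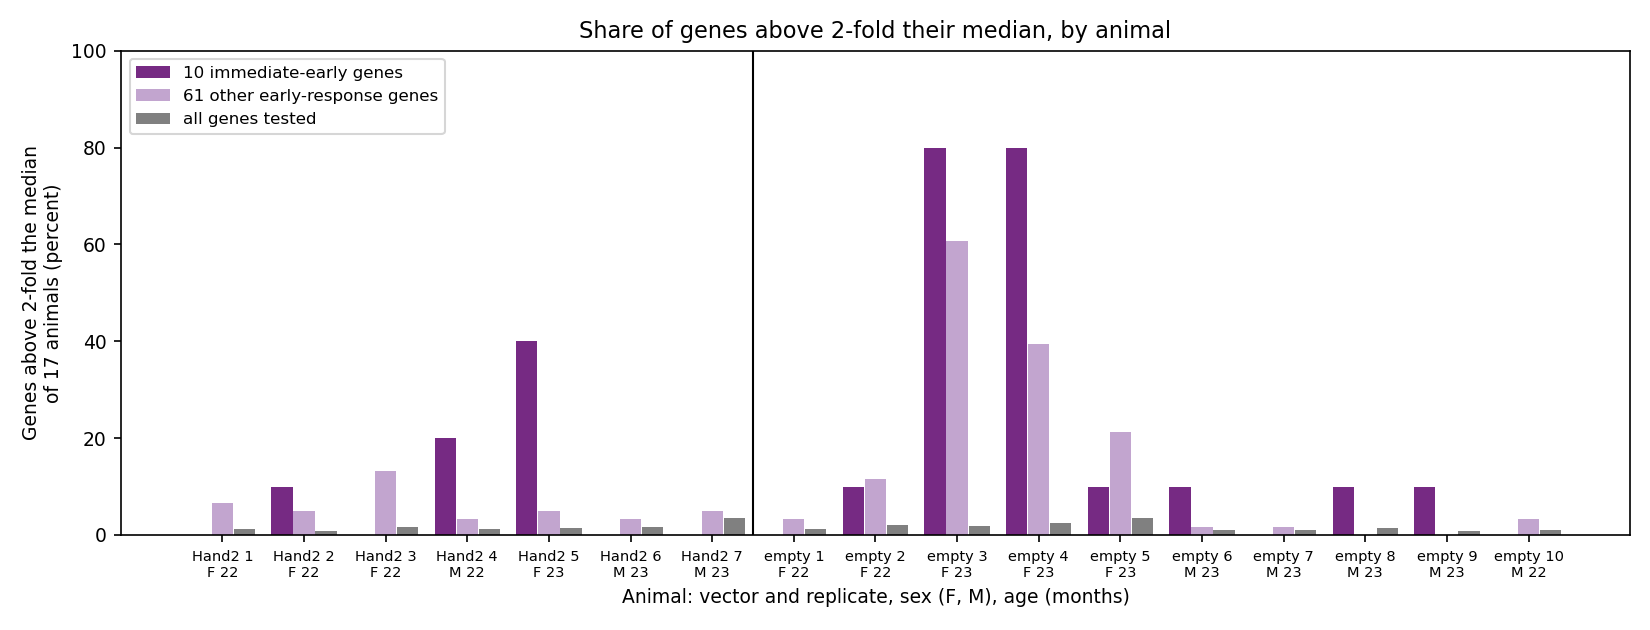
Percent of genes above 2-fold their own median over 17 animals, for the 10 immediate-early genes, 61 other early-response genes and all 13965 genes tested, with 7 Hand2 animals on the left and 10 empty-vector animals on the right. The immediate-early genes reach 80% in empty-vector replicates 3 and 4 and 40% in Hand2 replicate 5, while all genes tested stay at or below 3.5% in each animal.

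The genes with the order of levels most like that of the 10, by rho with their mean over 17 animals among 13965 genes, were Klf2 (rho = 0.851), Cyp20a1 (0.784), Apold1 (0.760), Cxcr7 (0.760) and Klf4 (0.753), followed by Usp43, Grasp, Jund, Dusp1 and Mfap5, between 0.745 and 0.721. Klf2 and Klf4 are zinc-finger factors of endothelial and other cells, and Dusp1 is a phosphatase of MAP kinases. Klf2, Klf4, Jund and Dusp1 are in the list of other early-response genes. Apold1 had 52.5 and 14.3 CPM in empty-vector replicates 3 and 4, against 1.76 to 9.54 CPM in the other 15 animals. Among the lowest rho were those of Wdr86 and Tnfsf13 (both -0.74) and of Fbxl6 and Herc6 (both -0.73).

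Markers of other cell types were summed in the same animals. Macrophage markers summed to 110.3 and 118.4 CPM in empty-vector replicates 3 and 4, against 66.9 to 183.2 CPM in the other 15 animals, and endothelial markers to 383.8 and 344.6 CPM, against 342 to 534.3 CPM. Neutrophil markers summed to 6.80 and 4.14 CPM, against 4.75 to 26.8 CPM, so that replicate 4 had the lowest sum of all animals. T and B cell markers summed to 2.22 and 2.07 CPM, against 1.34 to 6.03 CPM, satellite cell markers to 55.9 and 52.8 CPM, against 39.8 to 60.5 CPM, and fibroblast markers to 849 and 953.5 CPM, against 489.1 to 1342 CPM. Smooth muscle and pericyte markers, of which Acta2 is listed at 0 in all animals, summed to 300.6 and 312.4 CPM, against 259.1 to 335.3 CPM, and adipocyte markers to 226.6 and 195.8 CPM, against 174.7 to 327.8 CPM. These sums lay inside the range of the other animals, except the neutrophil sum of replicate 4. Slow-fibre markers summed to 612.2 and 882.3 CPM, against 135 to 1456 CPM, with 1403 CPM in Hand2 replicate 5. Of these 7 genes, 1 and 5 were above 2-fold their median in the 2 animals and 6 in Hand2 replicate 5. All 7 were above it in Hand2 replicate 3 and in empty-vector replicates 1 and 2. Of all genes tested, at most 3.5% were above it in any animal.

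In 3 other lists at least 1 of the 2 animals stood above all others. Red blood cell markers summed to 1583 and 2413 CPM in empty-vector replicates 3 and 4, against 280.6 to 2290 CPM in the other 15, with 394.9 CPM in Hand2 replicate 5. Schwann cell and nerve markers summed to 280.4 and 266.3 CPM, against 169.2 to 253.9 CPM, where 253.9 CPM was the sum of Hand2 replicate 5. None of these 6 genes was above 2-fold its median in either animal. Sox10 went the other way, at 2.90 and 2.29 CPM against 3.79 to 7.59 CPM, while S100b and Pmp22 were above the other 15 animals. Keratinocyte markers, of which Krt5 is listed at 0 in all animals and 1 of 6 passed the filter, summed to 3.48 and 3.80 CPM, against 2.23 to 3.72 CPM. The part of these sums in the levels of the immediate-early genes was not tested. Total counts were 30942818 in empty-vector replicate 3, the deepest library, and 24405529 in replicate 4, which lies inside the range of the others.

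Whether the Hand2 vector changed these genes was tested with edgeR's quasi-likelihood test with sex as a term, Benjamini-Hochberg adjusted over 13965 genes. None of the 10 genes passed an adjusted p of 0.05, where 0.0% of all genes passed, and DESeq2 and limma-voom called none of the 10 either. At an unadjusted p under 0.05 there were 2 of the 10, Atf3 and Egr3, against 5.05% of all genes tested. Of the 10 log2 fold changes (Hand2 over empty vector), 2 were positive and 8 negative, with a median of -0.29, against -0.0041 over all genes tested. Atf3 averaged 7.06 ± 1.92 CPM in Hand2 animals (SD, n = 7) and 42.1 ± 50.2 CPM in empty-vector animals (SD, n = 10), or -2.34 ± 0.69 on the log2 scale (SE, 95% interval -3.81 to -0.87, edgeR adjusted p = 0.921). Egr3 averaged 0.996 ± 0.454 CPM in Hand2 animals and 0.534 ± 0.167 CPM in empty-vector animals, or 0.87 ± 0.27 on the log2 scale (SE, 95% interval 0.30 to 1.44, edgeR adjusted p = 0.921).

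The intervals of the other 8 genes were wide and held 0. Fos averaged 21.0 ± 18.2 CPM in Hand2 animals and 49.1 ± 103.8 CPM in empty-vector animals, that is -0.58 ± 1.0 on the log2 scale (SE, 95% interval -2.72 to 1.56). Junb averaged 23.4 ± 5.88 CPM in Hand2 animals and 68.2 ± 122.5 CPM in empty-vector animals, that is -1.07 ± 0.67 on the log2 scale (SE, 95% interval -2.51 to 0.36). Nr4a1 averaged 187 ± 46.3 CPM in Hand2 animals and 289.1 ± 316.1 CPM in empty-vector animals, a log2 fold change of -0.50 ± 0.47 (SE). Egr1, at 30.2 ± 18.9 CPM in Hand2 animals and 45.0 ± 62.7 CPM in empty-vector animals, had a log2 fold change of -0.34 ± 0.73 (SE). Fosb, Jun and Egr2 had log2 fold changes of -0.24 ± 0.71, -0.12 ± 0.24 and -0.08 ± 0.20 (SE), and Ier2 of 0.04 ± 0.25 (SE). Differences of this size lie within the spread between animals.

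The direction of most of these values turned on empty-vector replicates 3 and 4. Without both animals, a comparison added after the levels had been seen, 8 of the 10 log2 fold changes were positive and 2 negative, with a median of 0.35. Fos then had 1.23 ± 0.57 (SE, interval -0.01 to 2.47), Fosb 1.05 ± 0.61, Egr1 0.92 ± 0.50, Ier2 0.35 ± 0.16, Nr4a1 0.34 ± 0.22, Jun 0.20 ± 0.15 and Egr2 0.19 ± 0.17, and none of the 10 passed the edgeR test after adjustment (smallest adjusted p = 0.874). Leaving out replicate 3 alone gave 7 positive and 3 negative values, and leaving out replicate 4 alone 3 and 7. Atf3 and Egr3 kept their direction: without both animals Atf3 had -1.43 ± 0.46 (SE) and Egr3 0.77 ± 0.29 (SE). Over all settings tried, the log2 fold change of Atf3 stayed between -2.58 and -1.43 and that of Egr3 between 0.30 and 1.41.

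**Figure D5:**
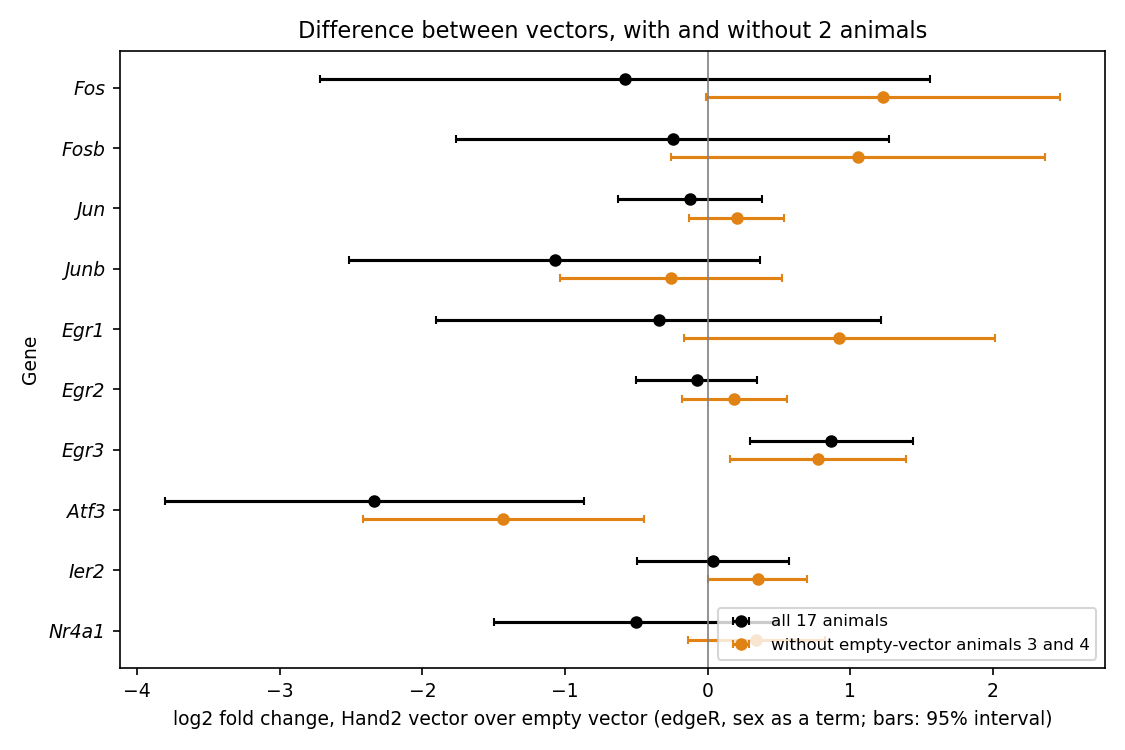
Log2 fold change of each immediate-early gene, Hand2 over empty vector, from edgeR with sex as a term, in all 17 animals (black) and without empty-vector replicates 3 and 4 (orange), with bars for the 95% interval. Fos, Fosb, Jun, Egr1, Egr2 and Nr4a1 lie left of 0 with all animals and right of it without the 2, while Atf3 stays left and Egr3 stays right.

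The animals' ages were also compared. Within the 23-month animals (3 Hand2, 7 empty vector) 3 of the 10 log2 fold changes were positive, and within the 22-month animals (4 Hand2, 3 empty vector) 9 were, all but Atf3, and none of the 10 passed the edgeR test in either. Atf3 had -2.14 ± 1.06 (SE) at 23 months and -1.44 ± 0.62 (SE) at 22 months, and Egr3 had 1.41 ± 0.32 (SE, edgeR adjusted p = 0.559) at 23 months and 0.30 ± 0.39 (SE) at 22 months. Fos had -0.21 ± 1.02 (SE) at 23 months and 1.07 ± 0.99 (SE) at 22 months. The difference between ages was not tested. All other sample titles carry a sex letter, and those of the 4 younger Hand2 animals do not, so that within the Hand2 group age and the form of the title cannot be told apart. Among the 4 females of 23 months, Fos had 57.3 CPM in the Hand2 animal and 337.7, 79.6 and 7.07 CPM in the empty-vector animals.

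In females (4 Hand2, 5 empty vector) 9 of the 10 log2 fold changes were negative, with a median of -0.86. None of the 10 passed the edgeR test, where 0.0% of all genes did, and 3 had an unadjusted p under 0.05, against 5.9% of all genes. These were Atf3 at -3.34 ± 0.86 (SE, edgeR adjusted p = 0.783), Junb at -2.25 ± 0.79 (SE, edgeR adjusted p = 0.802) and Egr3 at 0.82 ± 0.38 (SE, edgeR adjusted p = 0.842). DESeq2 called 1 of the 10, Atf3 (adjusted p = 0.0238), against 0.0501% of all genes. The mean of Atf3 was 6.57 ± 1.12 CPM in the 4 Hand2 females (SD) and 66.4 ± 62.9 CPM in the 5 empty-vector females (SD). All 5 empty-vector females were above all 4 Hand2 females, with 9.93 CPM as the lowest of the 5 and 8.22 CPM as the highest of the 4. The share of all genes with such a separation was not counted. Without empty-vector replicates 3 and 4, 8 of the 10 values in females were positive, with a median of 0.45. Atf3 then had -1.69 ± 0.67 (SE, edgeR adjusted p = 0.764).

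In males (3 Hand2, 5 empty vector) 9 of the 10 log2 fold changes were positive, all but Atf3, with a median of 0.28. None of the 10 passed the edgeR test, where 0.0% of all genes did, and 1 had an unadjusted p under 0.05, against 2.84% of all genes. That gene was Egr3, at 0.978 ± 0.269 CPM in Hand2 males (SD, n = 3) and 0.509 ± 0.175 CPM in empty-vector males (SD, n = 5), a log2 fold change of 0.92 ± 0.42 (SE, edgeR adjusted p = 1). Fos averaged 20.7 ± 9.27 CPM in Hand2 males and 10.3 ± 5.73 CPM in empty-vector males, a log2 fold change of 1.01 ± 1.26 (SE). The difference of the vector effect between the sexes, males minus females, was positive for all 10 genes, with a median of 1.11, and passed for none after adjustment, where 0.0% of all genes passed. Without empty-vector replicates 3 and 4 it was positive for 4 and negative for 6, with a median of -0.07. Junb alone had an unadjusted p under 0.05 for it, at 2.46 ± 1.11 on the log2 scale (SE, edgeR adjusted p = 1), against 3.39% of all genes.

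All 10 log2 fold changes between sexes (male over female) were negative, with a median of -1.01, against 0.00058 over all genes tested, and none passed the edgeR test, where 5.63% of all genes did. Fosb, Jun, Junb and Egr2 (4 of 10) had an unadjusted p under 0.05, against 21.6% of all genes. Egr2 came nearest, at -0.59 ± 0.20 (SE, edgeR adjusted p = 0.0931). It averaged 2.09 ± 0.647 CPM in Hand2 males (SD, n = 3) and 1.91 ± 0.327 CPM in empty-vector males (SD, n = 5), against 2.69 ± 0.615 CPM in Hand2 females (SD, n = 4) and 3.18 ± 1.28 CPM in empty-vector females (SD, n = 5). DESeq2 called 2 of the 10, Junb (adjusted p = 0.0464) and Egr2 (adjusted p = 0.0471), against 9.14% of all genes. The size of the median rested largely on the 2 females: without empty-vector replicates 3 and 4 it was -0.10. In that setting 4 of the 10 values were positive and 6 negative. None of the 10 passed the edgeR test there, as with all animals, where 398 of all 13908 genes tested in that setting did.

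Genes linked to the 10 by function were taken from lists in the vector comparison, where edgeR called none of them after adjustment. At an unadjusted p under 0.05 the shares of these lists are set against 5.05% of all genes tested. Of the 61 other early-response genes, 13 had positive and 48 negative log2 fold changes, with a median of -0.17, and 3 had an unadjusted p under 0.05: Crem at -0.34 ± 0.14 (SE), Sik1 at -1.26 ± 0.55 (SE) and Nfil3 at -0.87 ± 0.40 (SE). Of 23 upstream regulators 7 were positive and 16 negative, with a median of -0.04, and 1 had an unadjusted p under 0.05, the kinase gene Rps6ka3 at -0.37 ± 0.10 (SE). Of 8 partners and repressors 3 were positive and 5 negative, with a median of -0.02. Nab2, a corepressor of Egr proteins, was the one of these with an unadjusted p under 0.05, at 0.42 ± 0.17 (SE).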

How the data were processed

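Libraries of EDL muscle RNA were made with the Illumina TruSeq v2 kit, as the labels' protocols give it. The genome build is mm10, per the submitters' processing notes. The aligner and counter, and whether strand was used, were not given in the sources used here. Deposited by the authors were estimated counts per gene for each animal, not scaled for depth, and log2 normalized values, which served only as an alternative here. Animals were grouped by the vector in their labels. Estimated counts were rounded, genes kept by filterByExpr on vector and sex, scaled by the trimmed mean of M values and tested with edgeR 4.0.16 (R 4.3.3), robust quasi-likelihood, with Benjamini-Hochberg adjustment at 0.05. The comparison of vectors and of sexes used both terms, and comparisons within a sex used 4 vector-by-sex groups. SEs are the size divided by the root of F. Alternatives were DESeq2 1.42.0, limma-voom (limma 3.58.1), other scalings and filters, an age term, single ages and leaving out animals. The procedure was tested on simulated counts without outlying animals, with changes placed only in genes of higher counts than Egr3. That test does not cover Egr3 or genes that are high in a few animals.

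CPM are scaled by the same factors. Exon lengths came from GENCODE M21 and promoters from RefSeq. Intervals cover the spread between animals and counting error only, and no molecular identifiers are mentioned. No pair of libraries agreed within sampling noise, the closest having a mean chi-square of 6.96 per gene. The 10 genes and the gene lists were chosen with earlier results of these data known. Named were all 10 genes, of each list up to 4 genes by smallest p in the comparison of vectors, and the genes most like the 10 by rank correlation. Other early-response genes named for their levels were chosen after these were seen. One gene that the rank correlation names is not reported here. Reads from overlapping antisense genes cannot be told apart without strand.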

Additional observations from a re-analysis of the deposited data

Results flagged for a closer look

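Of 50 groups of animals looked at, 10 held an animal whose gap to its nearest neighbour was large against the range of its group. The limit is set to flag about 1 in 20 separate groups of normally distributed values. These groups share animals, and their genes vary together, so the count of 10 cannot be set against that rate. Empty-vector replicate 3 was set apart for 4 genes. Its Fos level was 337.7 CPM, where the next of the 10 empty-vector animals had 79.6 CPM, and it stood apart likewise among the 5 empty-vector females. Its Junb level was 411.1 CPM, where the next empty-vector animal, also a female, had 82.7 CPM. Its Ier2 level was 30.7 CPM, where the next had 13.9 CPM among the 10 empty-vector animals and 13.5 CPM among the 5 females. Its Fosb level was 13.3 CPM, where the next of the 10 had 6.77 CPM.

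Hand2 replicate 5 had 7.53 CPM of Fosb, where the next of the 7 Hand2 animals had 3.38 CPM. Hand2 replicate 3 had 3.60 CPM of Egr2, where the next of the 4 Hand2 females had 2.48 CPM. Empty-vector replicate 6 had 30.7 CPM of Junb, where the next of the 5 empty-vector males had 16.7 CPM.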

How the results depend on the processing

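No paired analysis was possible because replicate numbers follow the order of the samples and pair no animals. Of the genes' log2 fold changes under all alternatives, 1283 kept their direction and their side of the threshold, 88 changed sign and 4 became significant: Atf3 between vectors in females, Junb and Egr2 between sexes with DESeq2 and Egr2 between sexes without empty-vector replicate 1. Without empty-vector replicates 3, 4 and 5 the sign turned between vectors for Fos (1.18), Fosb (0.88), Jun (0.22), Junb (0.21), Egr1 (0.76), Egr2 (0.21) and Nr4a1 (0.33), between vectors in females for Fos (1.43), Fosb (1.64), Jun (0.22), Junb (0.21), Egr1 (0.93), Egr2 (0.32), Ier2 (0.24) and Nr4a1 (0.59), between sexes for Fos (0.16) and Egr1 (0.16), in the difference of the vector effect between sexes for Fos (-0.42), Fosb (-1.30), Egr1 (-0.29), Egr2 (-0.19) and Nr4a1 (-0.44). Without replicates 3 and 4, chosen after seeing the data, the sign turned between vectors for Fos (1.23), Fosb (1.05), Jun (0.20), Egr1 (0.92), Egr2 (0.19) and Nr4a1 (0.34), between vectors in females for Fos (1.48), Fosb (1.81), Jun (0.17), Egr1 (1.23), Egr2 (0.24), Ier2 (0.36) and Nr4a1 (0.55), between sexes for Fos (0.21), Egr1 (0.33), Ier2 (0.034) and Nr4a1 (0.0027), in the difference of the vector effect between sexes for Fos (-0.47), Fosb (-1.47), Egr1 (-0.58), Egr2 (-0.11), Ier2 (-0.017) and Nr4a1 (-0.40). With an age term the sign turned between vectors for Fos (0.41), Fosb (0.40), Egr1 (0.35) and Egr2 (0.061), between vectors in females for Fosb (0.012). At 22 months the sign turned between vectors for Fos (1.07), Fosb (1.10), Jun (0.42), Junb (0.19), Egr1 (0.75), Egr2 (0.44) and Nr4a1 (0.42). At 23 months the sign turned between vectors for Egr1 (0.0298). With limma on the deposited log2 values, also added later, the sign turned between vectors for Egr1 (0.097). With limma-voom the sign turned between vectors for Ier2 (-0.056), between vectors in males for Egr2 (-0.011). Leaving out each animal in turn, the log2 fold change between vectors ran from -0.54 to 0.11 for Egr1, from -0.18 to 0.022 for Egr2, from -0.96 to 0.35 for Fos, from -0.68 to 0.35 for Fosb, from -0.062 to 0.29 for Ier2 and from -0.34 to 0.015 for Jun. Leaving out each animal in turn, the log2 fold change between vectors in females ran from -1.61 to 0.35 for Fosb and from -0.48 to 0.24 for Ier2. Leaving out each animal in turn, the log2 fold change between vectors in males ran from -0.076 to 0.35 for Egr2, from -0.10 to 0.77 for Fosb and from -0.19 to 0.40 for Jun. Leaving out each animal in turn, the log2 fold change between sexes ran from -0.18 to 0.10 for Egr3. Leaving out each animal in turn, the log2 fold change in the difference of the vector effect between sexes ran from -0.089 to 0.57 for Egr3 and from -0.013 to 1.95 for Fosb. Between vectors the sign turned without empty-vector replicate 3 alone for Fos, Fosb, Jun, Egr1 and Egr2, without replicate 4 for Egr2, without Hand2 replicate 3 for Fosb, and without any of empty-vector replicates 1, 5, 8 and 9 and Hand2 replicates 5 and 7 for Ier2. It turned in females without empty-vector replicate 3 for Fosb and Ier2, in males without Hand2 replicate 4 for Fosb and Jun and without 7 for Egr2, and between sexes without empty-vector replicate 10 or Hand2 replicate 5 for Egr3. The difference of the vector effect between sexes turned without empty-vector replicate 3 for Fosb, and without any of empty-vector replicates 1 and 10 and Hand2 replicates 1, 3, 6 and 7 for Egr3. DESeq2 called 1 gene of all tested between vectors, 7 in females (1 of the 10 genes), 1 in males and 1276 between sexes (2 of the 10), against 0, 0, 0 and 786 with edgeR. Leaving out each animal in turn, edgeR called 0 to 1 genes between vectors, 0 to 1 in females, 0 to 2 in males and 476 to 952 between sexes, of which 0 to 1 of the 10. The single calls came without Hand2 replicate 6 between vectors, without Hand2 replicates 3 or 5 in females and without empty-vector replicate 1 for Egr2, and the 2 in males without Hand2 replicate 6. The count between sexes was 490 without empty-vector replicate 3, 476 without 7, and 516 and 508 without Hand2 replicates 6 and 7. Between sexes it called 291 genes without empty-vector replicates 3, 4 and 5 and 398 without 3 and 4. At 4-fold over the median, 1 animal in place of 2 had at least 5 of the 10 genes above the limit. The stricter filter of 1 CPM in 5 animals left out Egr3. Depth limits Egr3 most, with 7 to 39 counts per library, and a count of 0 would allow up to 3 counts, or 0.097 to 0.156 CPM. The causes of these shifts were not tested.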

Other observations

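All 20 heat shock genes tested had negative log2 fold changes (Hand2 over empty vector), with a median of -0.21, and none passed the edgeR test after adjustment. Of the 20, 8 had an unadjusted p under 0.05, against 5.05% of all genes tested, among them Hspa1b, an inducible chaperone, at -1.96 ± 0.66 (SE). The summed level of the 20 genes was 6095 to 7235 CPM in Hand2 animals and 6252 to 10240 CPM in empty-vector animals. Empty-vector replicates 3 and 4, in which the immediate-early genes were highest, had 7551 and 8497 CPM, and the highest sum was in another empty-vector animal.

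Genes known to respond to muscle loading, injury or denervation were listed too, and 1 of 17 had a positive and 16 a negative log2 fold change, with a median of -0.47, and none passed after adjustment. Xirp1, a striated-muscle actin-binding protein, had -1.14 ± 0.35 (SE), Ankrd1, a stretch-responsive ankyrin-repeat protein, -0.95 ± 0.31 (SE) and Myog, the transcription factor myogenin, -0.99 ± 0.38 (SE). These were the 3 of the 17 with an unadjusted p under 0.05, against 5.05% of all genes tested. The summed level of the 17 genes was 560.6 to 970.2 CPM in Hand2 animals and 662.6 to 2543 CPM in empty-vector animals, and was 1782 and 2453 CPM in empty-vector replicates 3 and 4. The highest sum was in another empty-vector animal, and replicate 5 had 1766 CPM. Above 2-fold their median were 8 of the 17 genes in empty-vector replicate 5, 5 in replicate 3, 6 in replicate 4 and 5 in replicate 2. The shares of all genes tested were 3.5%, 1.85%, 2.43% and 2.06% in these animals. Of 10 genes of the integrated stress response (Atf4 and genes it controls), 6 had positive and 4 negative values. Their sum was 771.2 and 901.2 CPM in empty-vector replicates 3 and 4, against 261 to 579.9 CPM in the other 15 animals. Only 1 of the 10 genes was above 2-fold its median in each of these 2 animals, against 2 in empty-vector replicate 5 and 2 in Hand2 replicate 1. The shares of all genes tested were 1.85% and 2.43% in the 2 animals, 3.5% in empty-vector replicate 5 and 1.3% in Hand2 replicate 1. Atf4 had 276.2 and 289.3 CPM in the 2 animals, against 198.8 to 250.8 CPM in the other 15. Ddit3, Sesn2 and Phgdh lay inside the range of the others.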
